A study of Mus musculus with 6 samples.

Results

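*Neat1* and *Malat1* are long noncoding RNAs of the nucleus, and *Sfpq*, *Nono*, *Pspc1* and *Rbm14* encode RNA-binding proteins of paraspeckles, the nuclear bodies built on *Neat1* RNA. These 6 genes were picked by their symbols out of the 56748 genes counted in sorted spinal cord endothelial cells (ECs), and all 6 were expressed highly enough to be among the 13107 genes tested. None of the 6 passed the test between mice with and without TDP-43 in ECs. Over the 6 mice, the highest level was 1.63-fold the lowest for *Nono* and 230.1-fold the lowest for *Rbm14*, with the other members between. The value for *Rbm14* rests on 5 counts in mouse 3 of those without TDP-43 in ECs. That mouse had 428 counts of *Gm21992*, a gene model that shares exonic bases with *Rbm14*.

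The study compared 3 control mice with 3 mice in which TDP-43, an RNA-binding protein encoded by *Tardbp*, was deleted from ECs, to ask what TDP-43 does in these cells. All 6 mice were on a C57BL/6 background and carried Tardbpflox, a *Tardbp* gene with loxP sites around exon 3. Both groups were TDP-43fl/fl, floxed on both alleles. The *TDP-43iΔEC* mice also carried Cdh5(PAC)-CreERT2, a tamoxifen-dependent Cre driven by the *Cdh5* promoter, which is active in ECs, and the control mice had no Cre. Both groups received tamoxifen (1 mg/mL) from P5 to P7, and ECs were sorted by FACS from spinal cords at P16. Each library is taken here as 1 mouse, which the labels and methods do not state, and no pooling was described. Mice of both sexes were used. Libraries followed SMARTseq2, in which oligo-dT primes the cDNA and PCR amplifies it, so the counts describe RNA that oligo-dT can reach. No molecular identifiers were described, and PCR copies were therefore counted as separate reads. The paper states that RNA input differed by sample and gives alternative numbers of PCR cycles, without the values for each library. Their part in the spread between libraries was not tested.

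Paraspeckles assemble when SFPQ and NONO coat newly made *Neat1* RNA. SFPQ, NONO and PSPC1 belong to the DBHS family, which share a core fold and pair with one another, and RBM14 helps the coated RNA gather into a body. *Neat1* is made in a short and a long form from the same start. The short form is polyadenylated, whereas the long form, the one that builds the paraspeckle, is cut at its 3′ end by RNase P and protected by an A-rich triple helix in place of a poly(A) tail. *Malat1*, the neighbor of *Neat1*, ends in the same way but gathers in nuclear speckles, which store splicing factors. TDP-43 is known to bind UG repeats in RNA and to bind *Neat1*.

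Both RNAs lie on the minus strand of mouse chromosome 19 (GRCm39, GENCODE M39), *Neat1* (ENSMUSG00000092274) at chr19:5874736-5897132 and *Malat1* (ENSMUSG00000092341) at chr19:5845717-5853602, with 21133 bp between them. The letters TGTGTG, a UG repeat in DNA letters, were searched on the transcribed strand of the longest annotated transcript of each gene, with overlapping matches counted. In the 22397 nt of long *Neat1* there were 48 matches, or 2.14 per kb. Of the 44 genes whose longest transcript is within 1.25-fold of that length, 68.2% held the motif, at 0.666 matches per kb in all, and 88.6% had a lower density than *Neat1*. The 3′ end of the short form falls at base 4806 of the long form. Of the 48 matches 3 lie before that point, and 45 lie in the part that only the long form has. *Malat1* (7886 nt) held 3 matches, or 0.38 per kb, in a length class where 96.5% of 2938 genes held the motif. Among the protein-coding members *Pspc1* held 4 matches, *Nono* 1, and *Sfpq* and *Rbm14* 0, where 88.2%, 80.6%, 88.5% and 85% of genes of like length held it. A match is a description of the letters and not a measured binding site.

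The sequences below, read from the GENCODE M39 transcripts, show the UG repeats and the 3′ parts that bear on oligo-dT priming. Capitals mark the UG repeat (bases 21047 to 21086 of long *Neat1* and 3850 to 3879 of *Malat1*), the A-rich tract at the end of long *Neat1* (bases 22368 to 22397), the polyadenylation signal near the end of short *Neat1* (bases 2985 to 3014 of its spliced annotated form, Neat1-202) and the longest run of A in *Malat1* (bases 7567 to 7596).
Long Neat1, longest UG repeat: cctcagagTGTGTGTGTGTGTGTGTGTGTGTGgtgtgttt
Malat1, first UG repeat: tatagattgtagTGTGTGgttctcttttga
Long Neat1, 3′ end: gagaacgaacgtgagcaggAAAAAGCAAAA
Short Neat1, 3′ end: aaAATAAAggtttgagattgaagcttctta
Malat1, run of A: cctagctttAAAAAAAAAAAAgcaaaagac
The longest UG repeat of *Neat1* is 24 nt long, against 6 nt in *Malat1*. The longest run of A is 12 nt in *Malat1*, at base 7576, and 7 nt in long *Neat1*. The run of A in *Malat1* overlaps the same letters that end long *Neat1*, which start 304 bases from the annotated end of *Malat1*. Whether this run lies inside the RNA or at its cut 3′ end was not tested. Oligo-dT can anneal to A-rich stretches of an RNA as well as to a poly(A) tail. Counts were made per gene, so the short and long forms of *Neat1* cannot be told apart here, and which 3′ ends were primed was not tested.

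**Figure D1:**
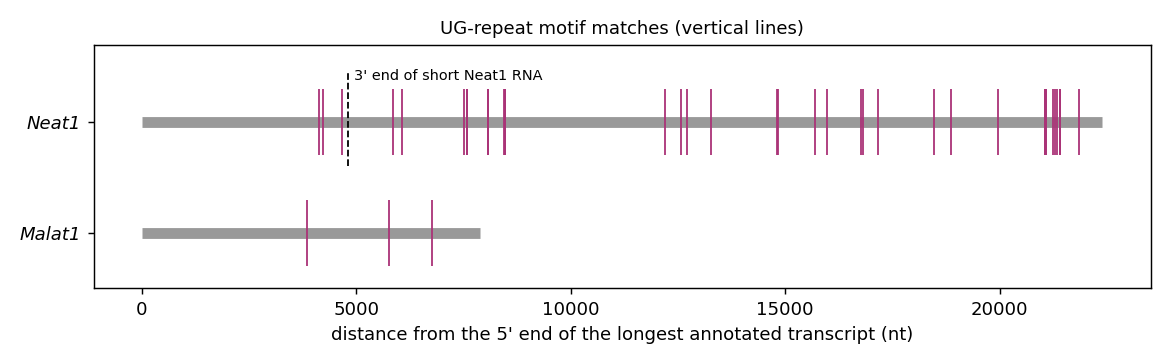
Matches to TGTGTG (vertical lines) along the longest annotated transcripts of Neat1 and Malat1, with distance from the 5′ end in nt on the x axis and the 3′ end of short Neat1 as a dashed line. Of the 48 matches in Neat1, 45 lie beyond the dashed line, and Malat1 has 3.

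The estimated counts summed to between 25704871 and 47270654 per library, and 3 counts correspond to 0.0635 to 0.117 CPM, the usual count relative to the library total. Levels are given as CPM scaled between libraries by the TMM method, in the order of mouse 1, 2 and 3 of each group. *Tardbp* was at 55.3, 61.9 and 58.5 CPM in control mice and at 26.6, 16.1 and 11.8 in *TDP-43iΔEC* mice, with no overlap between the groups (log2 fold change of *TDP-43iΔEC* over control -1.62, standard error 0.41, limma adjusted p = 0.287, with the Benjamini-Hochberg method over all tested genes, as for every adjusted p given here, and 0.0216 in DESeq2). These counts cover all exons, not the deleted exon alone. A multidimensional scaling set control mouse 2 and *TDP-43iΔEC* mouse 1 apart from the other libraries. *TDP-43iΔEC* mouse 1 also had 0 counts of *Xist*, against 10087 to 30632 in the other 5 mice, and was the only library with counts of the Y-linked gene *Ddx3y* (7421). All 8 EC markers were counted in every library, with sums of 10347 to 13722 CPM in control mice and 9353 to 11102 in *TDP-43iΔEC* mice. Mural cell markers summed to 536 to 962 and 424 to 975 CPM, fibroblast markers to 17.2 to 25.0 and 2.20 to 20.9, astrocyte markers to 13.3 to 29.5 and 0.501 to 23.3, oligodendrocyte markers to 296 to 591 and 15.5 to 461, and microglial markers to 0 to 3.87 and 0.226 to 8.14, with *Adgre1* at 0 in all. The 5 erythroid markers summed to 6935 to 10576 CPM in control mice and 2034 to 2884 in *TDP-43iΔEC* mice. The 6 neuronal markers summed to 5.13 to 12.0 and 1.93 to 3.21 CPM, and 0 of them were counted in every library. Neither of these sums overlapped between the groups, beside 7.93% of single tested genes that lay lower without overlap. The study's antibody list holds fluorescent antibodies to CD31, CD45 and TER-119, a surface marker of erythroid cells. The part of these cells in the members' values was not tested. In such bulk samples, fewer cells of a type and less RNA per cell cannot be told apart.

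*Neat1* was at 27.7, 80.5 and 39.3 CPM in control mice and at 118, 58.0 and 26.8 CPM in *TDP-43iΔEC* mice, from between 696 and 5752 counts per library. *TDP-43iΔEC* mouse 1 had more *Neat1* than any control mouse and *TDP-43iΔEC* mouse 3 had less than any, so the groups overlapped throughout. The group means were 49.2 ± 27.8 and 67.7 ± 46.5 CPM (SD, n = 3 mice each). The log2 fold change was 0.54 (standard error 0.58, 95% confidence interval -0.77 to 1.85, limma adjusted p = 0.779). The exact 2-sided permutation test over the mice gave p = 0.7, where 0.1 is the smallest p that 3 mice against 3 allow. The value depended on single mice of both groups. Without *TDP-43iΔEC* mouse 1 the log2 fold change was -0.12, without *TDP-43iΔEC* mouse 3 it was 1.00, without control mouse 1 it was 0.20, and without control mouse 2 it was 0.94. With both libraries that stood apart left out it was 0.29.

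*Malat1* was the most abundant member and ranked number 90 of all tested genes by mean CPM. Its level was 713, 1574 and 890 CPM in control mice and 1347, 654 and 843 CPM in *TDP-43iΔEC* mice. The highest values of both groups were those of control mouse 2 and *TDP-43iΔEC* mouse 1, the same 2 libraries in which *Neat1* was highest. The means were 1059 ± 454 and 948 ± 358 CPM (SD, n = 3), with a log2 fold change of -0.085 (standard error 0.33, 95% interval -0.84 to 0.67, limma adjusted p = 0.954). No difference was detectable at this spread, and the interval does not exclude changes of up to those bounds. The sign of the small difference turned with several settings, for example to 0.22 without control mouse 2 and to 0.16 without *TDP-43iΔEC* mouse 2.

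Part of the *Malat1* sequence is also annotated on the other strand. The exons of *Gm37376*, an unclassified gene model, overlap 5.74% of *Malat1* exonic bases in the opposite direction, and the counting options described do not use the strand. *Gm37376* was at 106.5, 158 and 90.3 CPM in control mice and at 122, 75.0 and 139 CPM in *TDP-43iΔEC* mice, well under *Malat1* itself. With its counts added to *Malat1*, the log2 fold change of *Malat1* was -0.082. For *Neat1*, the antisense gene *Frmd8os* overlaps 1.84% of exonic bases and had 50 counts in all 6 libraries together.

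**Figure D2:**
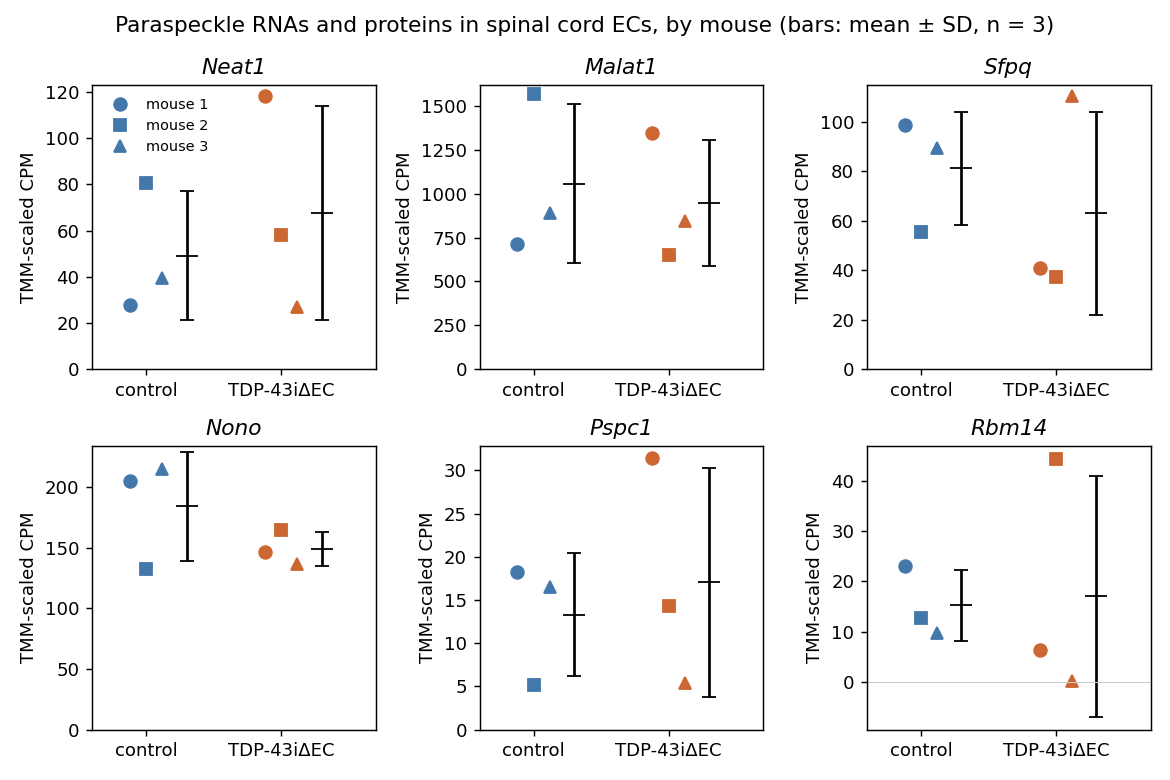
Level of each member in TMM-scaled CPM (y axis, linear, a separate scale per gene) by genotype (x axis), with 1 point per mouse and the mean ± SD (n = 3) as a bar beside them; marker shape gives the mouse number within its group. The groups overlap for all 6 genes, and Rbm14 runs from 0.193 to 44.4 CPM within the TDP-43iΔEC mice.

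*Nono* (ENSMUSG00000031311, chrX:100472901-100492202, plus strand) encodes NONO, which pairs with SFPQ on *Neat1*. It was the steadiest member, with 205, 132 and 215 CPM in control mice and 146, 164 and 136 CPM in *TDP-43iΔEC* mice. All 3 *TDP-43iΔEC* values lay within the range of the control values. The means were 184 ± 45.2 and 149 ± 14.3 CPM, with a log2 fold change of -0.28 (standard error 0.24, 95% interval -0.83 to 0.27, limma adjusted p = 0.717). The within-group SD of *Nono* was 0.29 on the log2 scale, and 12.0% of tested genes had a smaller one. *Nono* is X-linked, and *TDP-43iΔEC* mouse 1, the library without *Xist* counts, had 146 CPM, between the other 2 mice of its group.

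*Sfpq* (ENSMUSG00000028820, chr4:126915079-126930806, plus strand) encodes SFPQ, a splicing and transcription factor needed for *Neat1* stability. Its level was 98.7, 55.5 and 89.4 CPM in control mice and 41.0, 37.3 and 110.6 CPM in *TDP-43iΔEC* mice. *TDP-43iΔEC* mice 1 and 2 were below every control mouse, and *TDP-43iΔEC* mouse 3 was above every control mouse. The log2 fold change was -0.61 (standard error 0.42, 95% interval -1.56 to 0.34, limma adjusted p = 0.648), and the exact 2-sided permutation test gave p = 0.4. The sign did not turn under any of the 17 alternatives run, which gave -0.99 to -0.33, with adjusted p values no lower than 0.558. The value was -0.99 without *TDP-43iΔEC* mouse 3.

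*Pspc1* (ENSMUSG00000021938, chr14:56958166-57015804, minus strand) encodes paraspeckle component 1, the DBHS protein named for this body. It was at 18.2, 5.14 and 16.5 CPM in control mice and at 31.5, 14.3 and 5.36 CPM in *TDP-43iΔEC* mice, with the highest and nearly the lowest value in the same group. The log2 fold change was 0.53 (standard error 0.80, 95% interval -1.28 to 2.34, limma adjusted p = 0.845). Without *TDP-43iΔEC* mouse 1 it was -0.33, without control mouse 2 it was -0.12, and without both of these libraries it was -0.93 (limma adjusted p = 0.719). The direction of *Pspc1* is therefore not set by these data.

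*Rbm14* (ENSMUSG00000006456, chr19:4850597-4861663, minus strand) encodes a protein with a prion-like domain that links the *Neat1* particles of a paraspeckle. It was at 23.1, 12.7 and 9.81 CPM in control mice and at 6.46, 44.4 and 0.193 CPM in *TDP-43iΔEC* mice. *TDP-43iΔEC* mouse 3 gave 5 counts, or 0.195 CPM before scaling (95% exact binomial interval 0.0632 to 0.454, which covers counting error only), whereas *TDP-43iΔEC* mouse 2 gave 1382 counts. Of the tested genes, 95.2% had a smaller within-group SD on the log2 scale than the 2.17 of *Rbm14*. The log2 fold change was -1.57 (standard error 1.42, 95% interval -4.79 to 1.66, limma adjusted p = 0.729), although the means were close at 15.2 ± 6.98 and 17.0 ± 23.9 CPM. It was -0.083 without *TDP-43iΔEC* mouse 3 and -3.30 without *TDP-43iΔEC* mouse 2, and its sign turned under edgeR (0.16) and DESeq2 (0.21).

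*Rbm14* also shares 17.9% of its exonic bases with *Gm21992*, a protein-coding gene model on the same strand, between which the authors' counting could divide reads. *Gm21992* was at 8.20, 0 and 9.72 CPM in control mice and at 11.1, 13.5 and 16.5 CPM in *TDP-43iΔEC* mice. *TDP-43iΔEC* mouse 3, with the least *Rbm14*, thus had the most *Gm21992*. With the counts of the pair added together, the log2 fold change of *Rbm14* was 0.32 (limma adjusted p = 0.883).

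Of the 6 members, 0 passed an adjusted p of 0.05 in limma, edgeR or DESeq2. Of the 13107 tested genes, 18 (0.137%) passed in limma, 250 in DESeq2 and 0 in edgeR, so the edgeR count of members was bound to be 0. By an unadjusted limma p under 0.05, 0 of 6 were higher and 0 of 6 lower, against 4.26% and 5.0% of tested genes. The same count was 0 by edgeR and by DESeq2, where 848 and 1113 tested genes had such a p. The groups did not overlap for 0 of 6 members, against 7.40% of tested genes that lay higher without overlap and 7.93% that lay lower. With 6 members, counts of 0 are close to what these shares give.

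Levels can be compared between genes only per length, and only as far as oligo-dT reaches each RNA alike, which was not tested. *Malat1* ends without a poly(A) tail, so its place beside the mRNAs describes counts and not amounts of RNA. Per kb of longest transcript, *Malat1* had 127 ± 47.1 CPM (SD, n = 6 libraries) and *Nono* 51.3 ± 11.0 CPM. Their ranges did not overlap, at 82.9 to 199.6 for *Malat1* and 40.7 to 66.2 for *Nono*. *Sfpq* followed with 17.3 ± 7.54 CPM per kb, below *Nono* in range (8.95 to 26.5). *Rbm14* had 4.37 ± 4.28 and *Pspc1* 3.69 ± 2.37 CPM per kb, and these 2 did not differ beyond their spread. The place of *Neat1* in this order depends on the form: 2.61 ± 1.60 CPM per kb if all counts came from the long form, beside *Pspc1* and *Rbm14*, and 19.4 ± 11.9 if all came from the short annotated form, beside *Sfpq*.

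Ratios of counts within a library do not depend on the scaling between libraries, and 4 were tested. *Neat1* counts were 3.88%, 5.12% and 4.42% of *Malat1* counts in the controls and 8.78%, 8.88% and 3.18% in *TDP-43iΔEC* mice. *TDP-43iΔEC* mice 1 and 2 lay above every control mouse and *TDP-43iΔEC* mouse 3 lay below. The means were 4.47 ± 0.621% and 6.95 ± 3.26% (SD, n = 3), a log2 difference of 0.50 (exact 2-sided permutation p = 0.4, Benjamini-Hochberg p = 0.8 over the 4 ratios). It was 0.99 without *TDP-43iΔEC* mouse 3 and 0.25 without *TDP-43iΔEC* mouse 2. Control mouse 2, which had the highest level of both RNAs among the controls, did not stand out in their ratio.

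Measured against the DBHS proteins that bind it, *Neat1* gave 8.59%, 41.8% and 12.3% of the summed *Sfpq*, *Nono* and *Pspc1* counts in the controls and 54.1%, 26.9% and 10.6% in *TDP-43iΔEC* mice. The log2 difference was 0.60 (exact 2-sided permutation p = 0.6, Benjamini-Hochberg p = 0.8), and it lay between 0.045 and 1.28 as each mouse was left out. *Nono* made up most of the DBHS counts in every mouse, from 54.0% in *TDP-43iΔEC* mouse 3 to 76.1% in *TDP-43iΔEC* mouse 2. *Sfpq* counts were 48.1%, 42.0% and 41.6% of *Nono* counts in the controls but 28.0%, 22.7% and 81.2% in *TDP-43iΔEC* mice. The means were almost equal at 43.9 ± 3.65% and 44.0 ± 32.3%, and all 3 *TDP-43iΔEC* values lay outside the control range, 2 below it and 1 above it (log2 difference -0.23, exact 2-sided permutation p = 0.8, Benjamini-Hochberg p = 0.8). *Pspc1* counts were 8.88%, 3.89% and 7.68% of *Nono* counts in the controls and 21.5%, 8.71% and 3.93% in *TDP-43iΔEC* mice (log2 difference 0.49, exact 2-sided permutation p = 0.6, Benjamini-Hochberg p = 0.8). Whether the spread of these ratios differed between the genotypes was not tested.

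**Figure D3:**
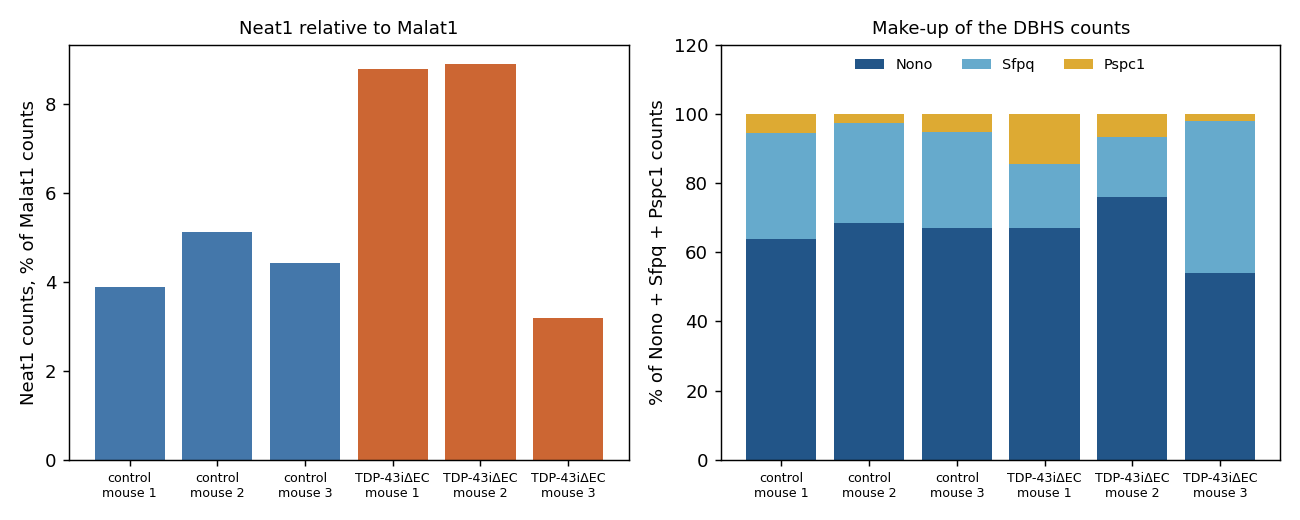
Left, Neat1 counts as a percentage of Malat1 counts in each mouse (bars from 0); right, the share of Nono, Sfpq and Pspc1 in their summed counts in each mouse (stacked bars, %). The 3 control mice lie between 3.88% and 5.12% on the left, and TDP-43iΔEC mouse 3 has the largest Sfpq share on the right, at 43.8%.

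Other proteins found in paraspeckles were compared from a list of 29, all of which were tested. None passed the threshold in limma, where 18 of 13107 tested genes passed, or in edgeR, where 0 did. *Hnrnph1* passed in DESeq2 (log2 fold change 1.03, adjusted p = 0.0240), where 250 of 13107 tested genes passed. *Hnrnph1*, an hnRNP that regulates splicing, was at 75.3, 61.3 and 95.4 CPM in control mice and at 187, 137 and 137 CPM in *TDP-43iΔEC* mice (limma log2 fold change 1.03, standard error 0.26, adjusted p = 0.287). Every *TDP-43iΔEC* mouse lay above every control mouse. The same held for *Rbm3*, a cold-inducible RNA-binding protein, at 171, 244 and 232 against 301, 358 and 294 CPM (0.57, standard error 0.20, limma adjusted p = 0.454). It held also for *Cpsf6*, a factor in the choice of polyadenylation sites, at 40.5, 5.29 and 37.3 against 51.1, 82.7 and 67.9 CPM (1.65, standard error 0.65, limma adjusted p = 0.504).

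With *Rbm4b* (log2 fold change 0.86) and *Rbm7* (0.33), named after their values were seen, these made 5 of 29 genes that lay higher without overlap, and 0 lay lower, against 7.40% and 7.93% of tested genes. By an unadjusted limma p under 0.05, 3 of 29 were higher and 0 lower, against 4.26% and 5.0%. The median log2 fold change of the list was 0.33, with 21 of 29 (72.4%) above 0, beside a median of -0.015 and 49.3% over all tested genes. The median was 0.14 without control mouse 2, 0.21 without control mouse 3, 0.16 without both libraries that stood apart, and 0.52 with library size as the only scaling, which moved the median of all genes by 0.19. Of the 3 most abundant genes of the list, *Rbm3* is described above. The others were *Hnrnpk*, which is needed for making the long form of *Neat1*, at -0.042 on the log2 scale (limma adjusted p = 0.960), and *Hnrnpf*, at 0.086 (limma adjusted p = 0.917).

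**Figure D4:**
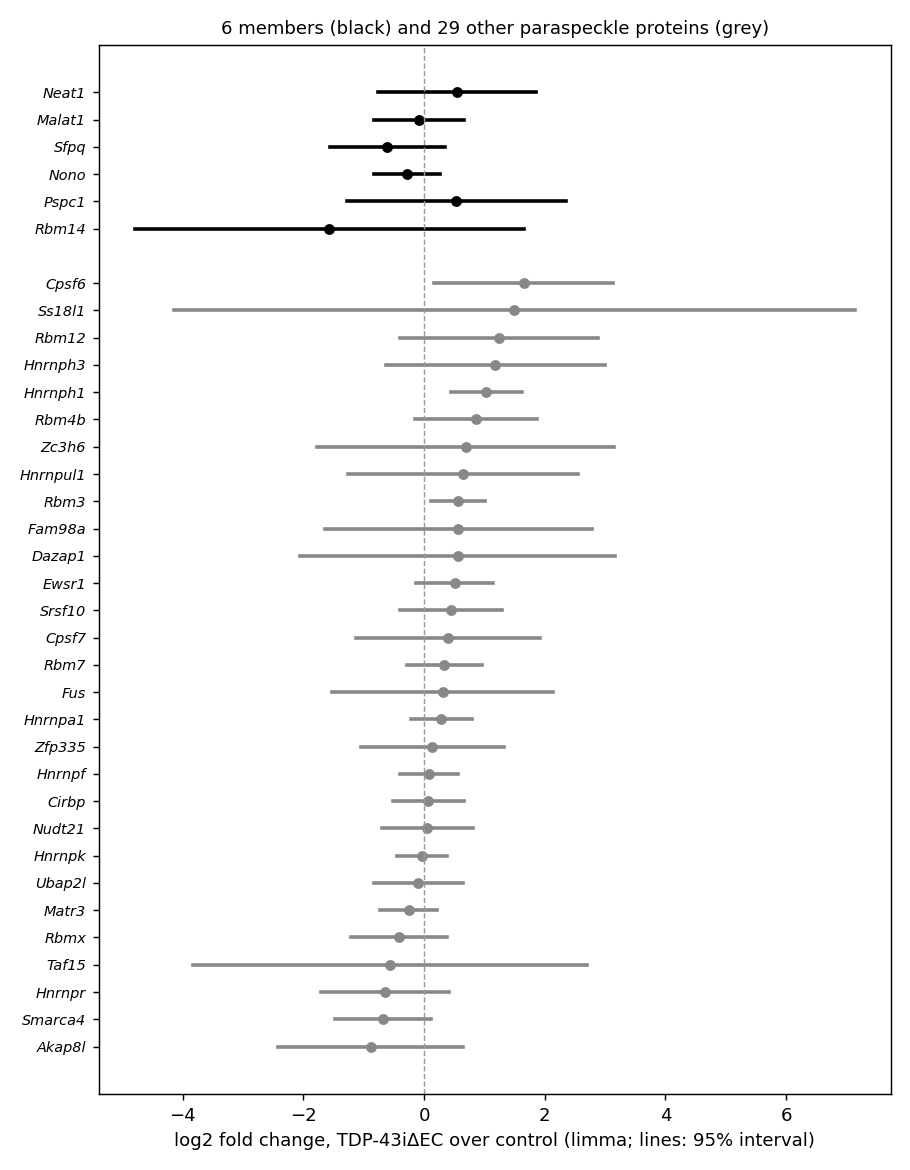
Log2 fold change of TDP-43iΔEC over control (x axis, limma) for the 6 members (black) and 29 other paraspeckle proteins (grey, ordered by value), with 95% confidence intervals as lines and no change as a dashed line. The intervals of all 6 members cross 0, and that of Rbm14 is the widest among them, from -4.79 to 1.66.

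Nuclear speckles, the bodies in which *Malat1* gathers, were represented by 11 tested genes, of which 0 passed the threshold. Their median log2 fold change was 0.31, with 9 of 11 above 0, against 49.3% of all tested genes. The median was 0.20 without control mouse 1, 0.19 without control mouse 2, and 0.13 without both libraries that stood apart. *Srsf11* (0.63, limma adjusted p = 0.558) was the 1 gene of 11 that lay higher without overlap, against 7.40% of tested genes, and *Srsf2* (0.75, limma adjusted p = 0.544) and *Pnn* (0.73, limma adjusted p = 0.638) overlapped between the groups. The most abundant of them were *Srsf5* (0.082), *Srsf3* (0.35) and *Son* (0.31), which encode SR proteins and the speckle scaffold SON.

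Among 17 other long noncoding RNAs, 12 were tested, and *Miat*, *Snhg14*, *Rian*, *Mirg* and *H19* had too few counts. None passed the threshold. *Kcnq1ot1*, the antisense RNA of an imprinted locus, had the smallest p, with 7.90, 12.7 and 4.49 CPM in control mice and 36.5, 13.9 and 26.7 CPM in *TDP-43iΔEC* mice (log2 fold change 1.74, standard error 0.72, limma adjusted p = 0.513). Its groups did not overlap, although *TDP-43iΔEC* mouse 2 lay just above control mouse 2. It was the 1 gene of 12 to lie higher without overlap, against 7.40% of tested genes. The median of the list was 0.32, with 11 of 12 above 0, against 49.3% of tested genes. It was 0.16 without *TDP-43iΔEC* mouse 1, 0.20 without control mouse 2, 0.51 without *TDP-43iΔEC* mouse 2, and 0.15 without both libraries that stood apart. The values included *Firre* at 0.75, *Gas5* at 0.34, *Tug1* at 0.40 and *Norad* at 0.15. *Neat1* (0.54) lay above this median and *Malat1* (-0.085) below it.

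RNase P, which cuts the 3′ ends of long *Neat1* and of *Malat1*, was represented by 10 tested subunits of 11 listed, as *Rpp25* was not counted. None passed the threshold, and the groups did not overlap for 0 of 10, against 7.40% of tested genes that lay higher and 7.93% that lay lower. The log2 fold change was above 0 for 2 of 10, against 49.3% of tested genes. Its median was -0.35, or -0.12 with at least 10 counts in every library. The subunit with the smallest p was *Pop7* at 1.03 (limma adjusted p = 0.607), followed by *Pop5* at -0.32 and *Rpp25l* at -0.61, and *Pop4*, next to *Pop5* the most abundant, was at -0.15.

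Of the 10 protein-coding genes nearest to *Neat1* and *Malat1*, 8 were tested and 0 passed the threshold. *Frmd8*, which lies 2598 bp from *Neat1*, was at 54.8, 36.1 and 36.0 CPM in control mice and at 88.6, 82.1 and 60.1 CPM in *TDP-43iΔEC* mice. Its groups did not overlap (log2 fold change 0.91, standard error 0.31, limma adjusted p = 0.444). The gene model *Gm50387*, 63976 bp from *Malat1*, also lay higher without overlap (1.50, limma adjusted p = 0.558), which made 2 of 8, against 7.40% of tested genes. The median of the 8 genes was 0.17. It ran from 0.0093 without control mouse 2 to 0.72 without *TDP-43iΔEC* mouse 1, and was 0.39 without control mouse 1, 0.10 without control mouse 3 and 0.098 without *TDP-43iΔEC* mouse 2. *Cdc42ep2* (-0.52) and *Dpf2* (0.11) overlapped between the groups.

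*Slc7a2*, an amino acid transporter gene whose nuclear transcript CTN-RNA is known to be held in paraspeckles, was counted unevenly among the mice. Control mice 1, 2 and 3 gave 19, 0 and 106 counts, and *TDP-43iΔEC* mice 1, 2 and 3 gave 696, 9 and 0. Most of its counts came from *TDP-43iΔEC* mouse 1, and the 95% interval of the log2 fold change ran from -5.94 to 8.17.

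Over the 6 libraries, the tested genes whose log2 CPM was most like that of *Neat1* by Pearson r were *5031425E22Rik* (0.992), *4930518I15Rik* (0.991) and *Ppp1r9b* (0.986), and 93 genes had an r above 0.9. Those most like *Malat1* were *Pwwp2a* (0.994), *Ginm1* (0.984) and *Gm38144* (0.981), among 130 above 0.9. These are descriptions over 6 points that share library depth and the 2 libraries that stood apart.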

How the data were processed

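The authors mapped the reads to GRCm39 with STAR and quantified GENCODE M30 genes with RSEM at default options, and they deposited estimated counts per gene, which are whole numbers (0 values were not) without scaling or filtering. Groups and replicate numbers, used here as mouse numbers, came from the labels. Since the study's methods name limma with voom and no covariate, genotypes were compared in limma 3.58.1 (voom, empirical Bayes; R 4.3.3), after filterByExpr and TMM scaling in edgeR 4.0.16. The Benjamini-Hochberg method adjusted p over the 13107 tested genes (threshold 0.05). Permutation tests on single genes used log2 of CPM plus 0.5. Positions, overlaps and sequences came from GENCODE M39, which matched 98.7% of gene identifiers. No 2 libraries were alike within counting noise (lowest chi-square per degree of freedom 162). The procedure was tested on simulated counts. The members and lists were chosen with earlier results of these data known. The genes named are the members, *Tardbp*, *Slc7a2*, the 3 genes of each list with the smallest p and the 3 with the highest level, and the 3 genes most like *Neat1* and *Malat1*, except where stated. The alternatives were 16 settings, among them edgeR, DESeq2 1.42.0, other scalings, weights and filters, the replicate block and leaving out each mouse. After seeing the data 2 were added: both libraries that stood apart left out, and counts of overlapping genes added.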

Additional observations from a re-analysis of the deposited data

How the results depend on the processing

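The count of members past the threshold was 0 under all 18 alternatives, and was bound to be 0 in those where 0 genes passed. With at least 10 counts in every library, *Rbm14* was not tested, as it had 5 counts in *TDP-43iΔEC* mouse 3. The number of all genes past it was 18 in limma and depended on the setting: 0 with edgeR (848 at an unadjusted p under 0.05), 250 with DESeq2, 10 with library size as the only scaling, 76 without a filter on low counts, 39 with at least 10 counts in every library, 0 (without *TDP-43iΔEC* mouse 1) to 13 (without control mouse 3) as each mouse was left out, and 0 without both libraries that stood apart. Leaving out control mouse 2 moved the median of all genes by -0.15.

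Directions turned for *Malat1* (0.094 by library size, 0.023 with quality weights, 0.029 without a filter, -0.44 to 0.22 with mice left out), *Pspc1* (-0.095 with quality weights, -0.93 without both libraries that stood apart, -0.33 to 0.99 with mice left out), *Rbm14* (0.16 with edgeR, 0.21 with DESeq2, 0.32 with the overlapping gene added, -3.30 to -0.083 with mice left out) and *Neat1* (-0.12 to 1.00 with mice left out). With mice left out the log2 ratio difference ran from -0.80 to 0.12 for *Sfpq* to *Nono* and from -0.14 to 1.09 for *Pspc1* to *Nono*. The cause was not tested. *Sfpq* and *Nono* kept their sign in all alternatives. DESeq2 placed 1 of the 29 other paraspeckle proteins past the threshold, and 250 of all 13107 tested genes.

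The labels number the samples within each group and state no pairing. The deviations of same-numbered mice correlated at -0.049, -0.076 and -0.00015, and those of differently numbered mice at -0.037 to 0.098. With all pairs this alike, the correlations cannot decide whether samples were paired. With the replicate block, *Rbm14* was at 0.0067, 22 genes passed the threshold, and 0 members did. For *Rbm14* and *Slc7a2* the spread between mice exceeded counting error.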

Other observations

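Among the 15 pairs of members, chosen for mention after the values were seen, the strongest correlation of log2 CPM over the 6 mice was between *Neat1* and *Sfpq* (Pearson r = -0.863, exact permutation p = 0.0431, Benjamini-Hochberg p = 0.646; Spearman rho = -0.829, exact permutation p = 0.0583, Benjamini-Hochberg p = 0.875). Without the 2 mice farthest from the median of *Neat1* r was -0.767, and *Sfpq* was then not the strongest partner. On the few mice left, *Neat1* had r = -0.917 with *Nono* and -0.860 with *Pspc1*, against -0.456 and 0.298 over all 6 mice. *Neat1* and *Malat1* had r = 0.710 (exact permutation p = 0.124, Benjamini-Hochberg p = 0.675), rho = 0.543 (exact permutation p = 0.297), and r = 0.652 without the 2 farthest mice. No pair passed the correction. The letters that end long *Neat1*, AAAAAGCAAAA, also occur in *Malat1* at base 7583, which is 304 bases from its annotated end and overlaps the run of A shown above.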
